A study of Mus musculus with 2 samples.

Results

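The cholesterol synthesis and sterol handling genes described here are 27 of the 32285 genes counted in the series. They were chosen by symbol, with earlier results of these data known. Shares of members set beside shares of all genes are therefore a description and not a test. The members are 19 enzymes of the pathway between acetyl-CoA and cholesterol, 4 genes of sterol sensing, and 4 genes of sterol transport. All 27 symbols were found once each in the gene table, and every one was detected in both libraries, with 1639 to 720429 UMIs in the Mut library and 1578 to 686990 UMIs in the WT library. A UMI (unique molecular identifier) marks a single captured RNA molecule.

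The cells came from mouse cortex at postnatal day 5 and were profiled in droplets, in 1 library labelled Mut for Katnal2 and 1 library labelled WT. Katnal2 encodes a protein related to the catalytic subunit of katanin, which severs microtubules. Neither library is labelled with a drug or other agent. The sources used here name neither the strain, the kind of Katnal2 mutation, the sex of the animals nor their number in each library. The labels name storage of the tissue at low temperature after dissection, whereas the protocol describes enzymatic dissociation and flow sorting of whole cells, with no gate named. The design text speaks of 3 replicates, but the barcodes carry no mark of them, so each genotype counts as 1 sample. No test across animals can therefore be made, and no p-value is given. Intervals beside values are exact 95% intervals that cover counting error only, and whether a difference comes from genotype or from the animals and the preparation cannot be told apart. Katnal2 itself had 4.99 counts per 1000000 UMIs (CPM; interval 4.50 to 5.51) in Mut cells and 4.00 CPM (3.55 to 4.49) in WT cells. Since the mutated part of the gene is not known here, these tags do not check the labels.

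After filtering, 9286 Mut cells with a median of 7318.5 UMIs and 10052 WT cells with a median of 6224.5 UMIs were kept. Cells were clustered jointly without the genes described here and named from marker genes, each name ending in "-like" because it rests on rebuilt clusters. The 9 classes with at least 100 cells in both libraries were compared. Astrocyte-like cells were the most numerous, with 3258 cells in Mut and 3236 in WT, followed by oligodendrocyte precursor-like cells with 1697 in Mut and 1833 in WT. The smallest was the committed oligodendrocyte precursor-like class, with 111 cells in Mut and 133 in WT. In that class the 10 oligodendrocyte markers summed to 15187 CPM in Mut and 11455 CPM in WT, and the 7 markers of its own name to 10995 CPM in Mut and 10661 CPM in WT. The mixed astroglia class holds dividing cells that scored highest as astrocyte and second as radial glia, with scores below the minimum for a name. The inhibitory neuron-like class also holds a cluster led by histone genes, of 312 Mut and 416 WT cells. That cluster scored 0.429 for inhibitory neuron markers and 0.320 for radial glia markers. In the whole inhibitory neuron-like class, 43.3% of Mut and 37.5% of WT cells had a UMI of a division gene. The radial glia-like class is a single cluster that scored higher for ependymal markers (0.916) than for radial glia markers (0.664). It took its name because Veph1 and Hopx, both radial glia markers, were among its 10 leading genes, which held no ependymal marker. In each of the 8 compared classes that have a marker list of their own, all markers of that list were detected in both libraries. Of cells whose sex could be read from Xist and Y-linked genes, 65.4% were female in Mut and 47.0% in WT, so values are also given within each sex. Both libraries shared 39 cell barcodes, 0.386% of the Mut cells and 0.354% of the WT cells before doublet removal.

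Cholesterol is built inside each cell from acetyl-CoA. The mevalonate enzymes make activated isoprene units, which are joined to squalene, closed to lanosterol and trimmed to cholesterol in the endoplasmic reticulum. When membrane sterol is low, SCAP carries the SREBP transcription factors to the Golgi for cleavage, and they then turn on the pathway's genes. INSIG proteins hold SCAP back when sterol is plentiful. The blood-brain barrier keeps plasma lipoproteins out, so brain cells rely on local synthesis. Astrocytes are known to pass cholesterol to other cells on apolipoprotein E particles, loaded with the help of ABC transporters.

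RefSeq promoter windows on GRCm38.p6 were at hand for 22 of the 27 genes; Fdps, Fdft1, Sqle, Stard4 and Abcg1 had none. In the 250 bases before the start, the letters CCAAT were sought on both strands. NF-Y binds CCAAT boxes and is known to act with SREBPs at genes of this pathway. The motifs were chosen after looking at these windows, so the shares that follow are a description and not a test. CCAAT stood in at least 1 window of 15 of the 16 enzymes, all but Acat2, and in 15 of their 19 windows (78.9%). Among all 32851 windows the share was 33.8%. At least 3 copies were held by 4 of the 19 enzyme windows (21.1%), against 2.79% of all windows. These 4 windows are printed because they carry the most copies. They belong to Hmgcs1 at chr13:119690101-119690350 on the plus strand, Mvk at chr5:114444019-114444268 on the plus strand, Msmo1 at chr8:64733579-64733828 on the minus strand and Hsd17b7 at chr1:169969206-169969455 on the minus strand. By the gene annotation, 214 of the 250 bases of the Msmo1 window and 36 of the Hsd17b7 window lie inside the gene. All 250 bases lie inside the gene for the Lbr and Tm7sf2 windows and for the only Dhcr7 window with CCAAT. Capitals mark CCAAT or its reverse complement ATTGG and, in Hmgcs1 alone among the enzymes, the letters TCACNCCAC of a sterol regulatory element, which 1.05% of all windows hold. CCAAT and TCACNCCAC matches did not overlap. Sequences run 5′ to 3′ on the strand of the gene.
Hmgcs1: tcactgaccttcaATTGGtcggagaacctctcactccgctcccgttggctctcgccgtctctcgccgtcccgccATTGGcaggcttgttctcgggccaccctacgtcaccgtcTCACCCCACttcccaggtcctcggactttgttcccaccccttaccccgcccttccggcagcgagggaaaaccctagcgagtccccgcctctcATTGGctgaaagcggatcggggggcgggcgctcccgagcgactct
Mvk: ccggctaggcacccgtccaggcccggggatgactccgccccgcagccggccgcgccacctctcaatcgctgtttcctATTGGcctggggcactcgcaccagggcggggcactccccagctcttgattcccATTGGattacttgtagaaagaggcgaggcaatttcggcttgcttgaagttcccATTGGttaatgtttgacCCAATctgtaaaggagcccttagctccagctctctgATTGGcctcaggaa
Msmo1: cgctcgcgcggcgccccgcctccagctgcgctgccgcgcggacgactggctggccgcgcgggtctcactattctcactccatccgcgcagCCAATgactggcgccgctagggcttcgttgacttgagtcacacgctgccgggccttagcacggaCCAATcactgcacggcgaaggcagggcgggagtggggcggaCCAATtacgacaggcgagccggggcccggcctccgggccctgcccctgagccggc
Hsd17b7: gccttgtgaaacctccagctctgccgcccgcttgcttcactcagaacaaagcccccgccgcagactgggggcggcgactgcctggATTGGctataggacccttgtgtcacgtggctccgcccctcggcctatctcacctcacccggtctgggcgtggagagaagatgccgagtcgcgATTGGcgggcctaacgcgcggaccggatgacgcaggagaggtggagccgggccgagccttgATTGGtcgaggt
A match describes letters in a window and not a bound site. Mvk held 5 copies of CCAAT, and Hmgcs1, Msmo1 and Hsd17b7 held 3 each. No CCAAT match stood in the 3 windows of Apoe or in the window of Abca1.

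Most of the enzymes shared a single cell type pattern: astrocyte-like cells had the highest level for 16 of 19 enzymes in Mut and 15 of 19 in WT. Summed over the 19 enzymes, astrocyte-like cells held 5160 CPM in Mut and 4465 CPM in WT. Microglia-like cells were lowest, at 561 CPM in Mut and 454 CPM in WT, which made the span between classes 9.20-fold in Mut and 9.83-fold in WT. Mixed astroglia-like cells followed astrocyte-like cells, with 3814 CPM in Mut and 3459 CPM in WT. Committed oligodendrocyte precursor-like cells had 2993 CPM in Mut and 2918 CPM in WT, and oligodendrocyte precursor-like cells 2953 CPM in Mut and 2689 CPM in WT. Radial glia-like cells stood at 2764 CPM in Mut and 2408 CPM in WT. Inhibitory neuron-like cells were lower, with 1000 CPM in Mut and 905 CPM in WT. Mural cell-like cells (632 CPM in Mut and 590 CPM in WT) and endothelial cell-like cells (563 CPM in Mut and 505 CPM in WT) were near the low end. RNA free in the suspension, taken from barcodes of 10 to 100 UMIs, held 2457 CPM in Mut and 1951 CPM in WT, above the neuronal, vascular and microglial classes and below the astrocyte-like class.

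**Figure D1:**
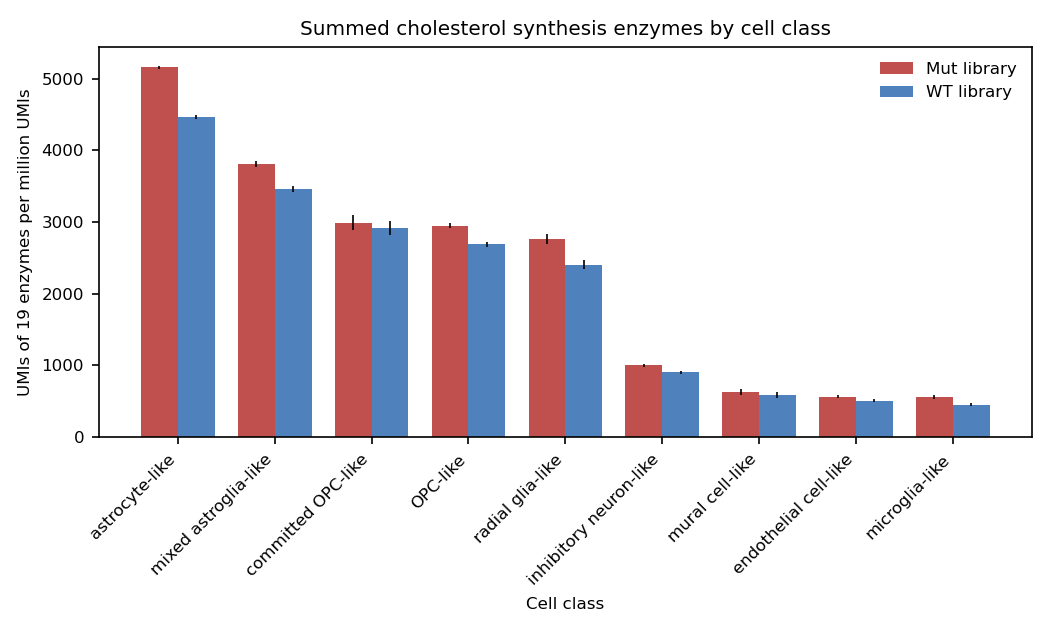
Summed UMIs of 19 cholesterol synthesis enzymes per 1000000 UMIs (vertical axis) in 9 cell classes (horizontal axis), with the Mut library left of the WT library in each class and error bars for exact 95% Poisson intervals. Astrocyte-like cells stand at 5160 CPM in Mut and 4465 CPM in WT, and microglia-like cells at 561 CPM in Mut and 454 CPM in WT.

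Levels per cell gave a similar order. With every cell thinned to 3000 UMIs, the median astrocyte-like cell had 15 enzyme UMIs in Mut and 12 in WT, over 3176 Mut and 3091 WT cells deep enough, with 82 Mut and 145 WT cells left out. Before thinning these medians were 46 UMIs in Mut and 34 UMIs in WT. Thinned oligodendrocyte precursor-like cells had a median of 8 UMIs in both libraries, inhibitory neuron-like cells 2 in both, and microglia-like cells 1 in both. Among the 6 astrocyte-like clusters the sum ran from 4305 to 6056 CPM in Mut and from 3752 to 5047 CPM in WT. The cluster led by Pla2g7, Cldn10 and Slc7a10 had 6056 CPM in Mut and 4903 CPM in WT, while the cluster led by Gfap and Serpinf1 had 4305 CPM in Mut and 4007 CPM in WT.

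**Figure D2:**
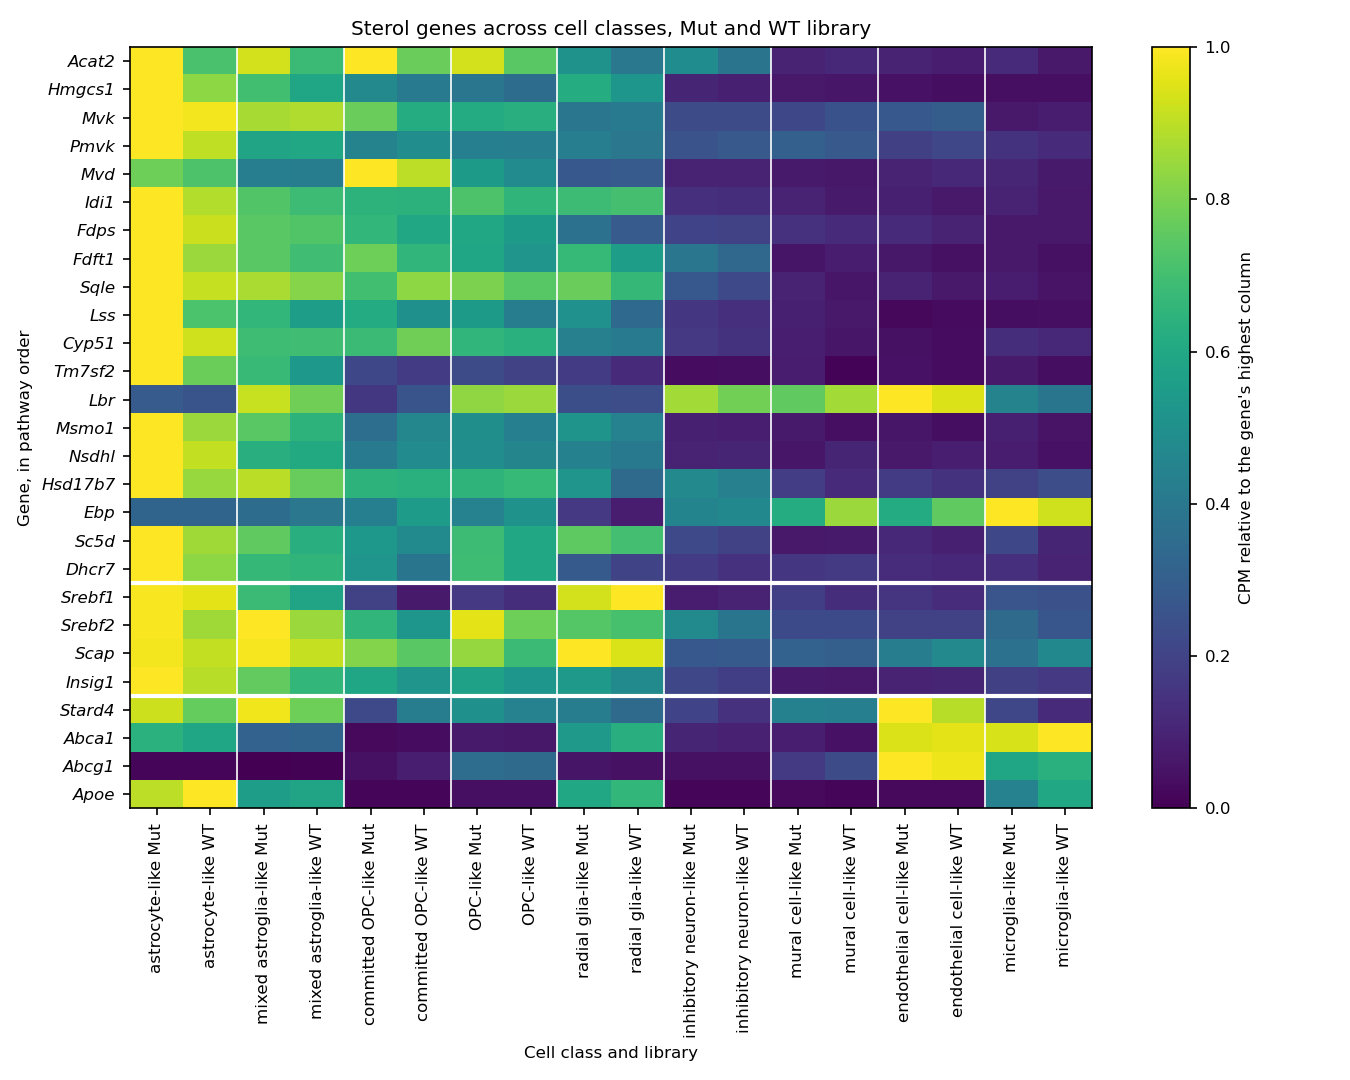
Level of each of 27 sterol genes (rows, in pathway order: synthesis, sensing, transport) in 9 cell classes (columns, Mut left of WT), as CPM relative to the gene's highest column. Most enzyme rows are brightest in astrocyte-like cells, whereas Lbr, Ebp, Stard4, Abca1 and Abcg1 are brightest in endothelial, microglial or mural columns.

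The mevalonate steps were mostly highest in astrocyte-like cells. Hmgcs1, which makes HMG-CoA and lies at chr13:119690379-119708260 of GRCm38, stood at 1370 CPM in Mut and 1136 CPM in WT there, and supplied 24.6% of the enzyme sum in Mut and 23.3% in WT. In microglia-like cells Hmgcs1 had 55.8 CPM in Mut and 58.1 CPM in WT. Acat2, the cytosolic thiolase that starts the route, at chr17:12942890-12960747, was spread over the glial classes: it had 205 CPM in Mut and 146 CPM in WT in astrocyte-like cells, and 205 CPM in Mut and 158 CPM in WT in committed oligodendrocyte precursor-like cells. Mevalonate kinase, encoded by Mvk, had 140 CPM in Mut and 138 CPM in WT in astrocyte-like cells, and 9.66 CPM in Mut and 11.5 CPM in WT in microglia-like cells. Phosphomevalonate kinase, encoded by Pmvk, had its highest level in astrocyte-like cells too, at 240 CPM in Mut and 217 CPM in WT. Mvd, the decarboxylase that yields isopentenyl diphosphate, departed from this order: committed oligodendrocyte precursor-like cells had 106 CPM in Mut and 95.7 CPM in WT, above the 82.8 CPM in Mut and 76.8 CPM in WT of astrocyte-like cells.

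The steps to squalene and lanosterol kept the astrocyte-high order. Idi1, which interconverts the isoprene units, had 389 CPM in Mut and 344 CPM in WT in astrocyte-like cells. Its level was 33.9 CPM in Mut and 26.7 CPM in WT in endothelial cell-like cells. Fdps, which makes farnesyl diphosphate, had 568 CPM in Mut and 523 CPM in WT in astrocyte-like cells. Squalene synthase, encoded by Fdft1, had 188 CPM in Mut and 160 CPM in WT there, and its second level in Mut was that of committed oligodendrocyte precursor-like cells at 147 CPM. In inhibitory neuron-like cells Fdft1 stood at 74.3 CPM in Mut and 62.8 CPM in WT. Squalene epoxidase, encoded by Sqle, spanned the glial classes narrowly, with 232 CPM in Mut and 211 CPM in WT in astrocyte-like cells and 179 CPM in Mut and 154 CPM in WT in radial glia-like cells. Fdft1 overlaps Ctsb, and Cyp51 overlaps Akap9, on the opposite strand. Lanosterol synthase, encoded by Lss, had 79.0 CPM in Mut and 56.5 CPM in WT in astrocyte-like cells, against 1.64 CPM in Mut and 2.34 CPM in WT in endothelial cell-like cells.

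Both sterol reductases that act after the demethylase Cyp51 were expressed, in opposite cell types. Tm7sf2 encodes a reductase of the endoplasmic reticulum, and Lbr encodes the lamin B receptor, an inner nuclear membrane protein with the same enzyme activity. Tm7sf2 was highest in astrocyte-like cells, at 89.3 CPM in Mut and 69.3 CPM in WT, and had 4.50 CPM in Mut and 2.81 CPM in WT in endothelial cell-like cells. Lbr was highest in endothelial cell-like cells, at 78.3 CPM in Mut and 74.3 CPM in WT, and had 22.5 CPM in Mut and 20.4 CPM in WT in astrocyte-like cells. In inhibitory neuron-like cells Tm7sf2 had 2.99 CPM in Mut and 3.21 CPM in WT, near the low end of its range. Lbr in the same class, which includes dividing cells, had 67.3 CPM in Mut and 61.5 CPM in WT. Dividing mixed astroglia-like cells were second for Tm7sf2 in both libraries and held Lbr at 71.6 CPM in Mut and 61.3 CPM in WT. Tm7sf2 lies at chr19:6062821-6068373 of GRCm38 and overlaps Vps51 on the same strand, and Lbr overlaps Dnah14 on the opposite strand. The sources used here do not say how the counting treated strand, so reads of such pairs may be shared.

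**Figure D3:**
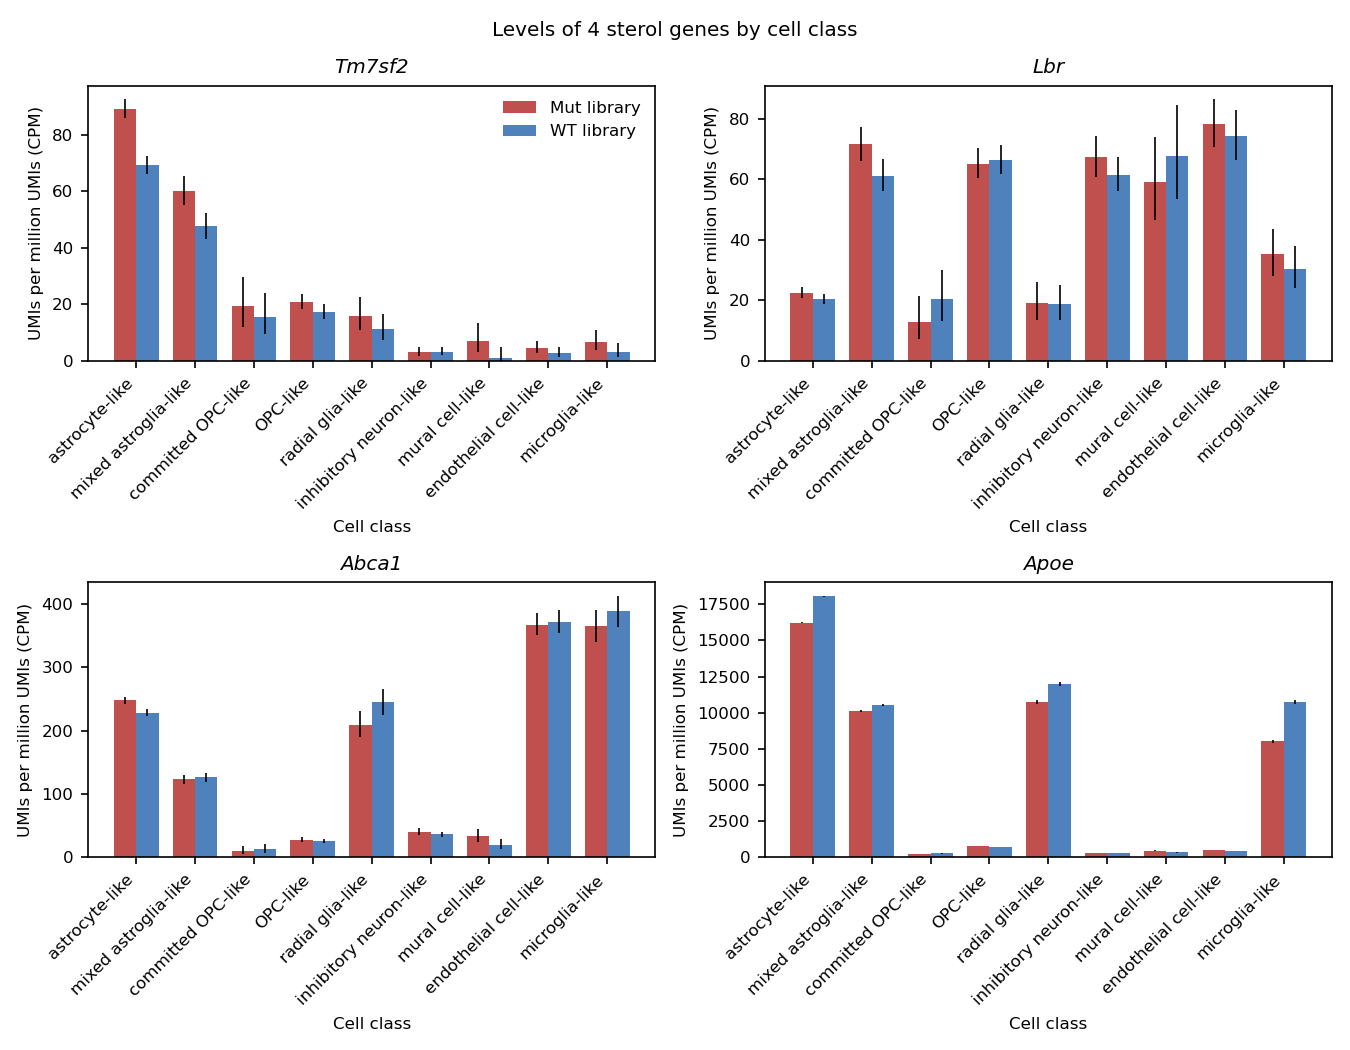
Levels of Tm7sf2, Lbr, Abca1 and Apoe in UMIs per 1000000 UMIs (vertical axes, each from 0) in 9 cell classes, Mut left of WT, with exact 95% Poisson intervals. Tm7sf2 peaks in astrocyte-like cells at 89.3 CPM in Mut and 69.3 CPM in WT, and Lbr in endothelial cell-like cells at 78.3 CPM in Mut and 74.3 CPM in WT.

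Of the late enzymes, Ebp broke the pattern and the others followed it. Ebp, the sterol isomerase, was highest in microglia-like cells, at 87.0 CPM in Mut and 80.7 CPM in WT, and in mural cell-like cells, at 53.8 CPM in Mut and 73.7 CPM in WT. Astrocyte-like cells had 28.2 CPM of Ebp in Mut and 27.9 CPM in WT. Cyp51, the lanosterol demethylase, had 465 CPM in Mut and 432 CPM in WT in astrocyte-like cells, and Msmo1, the sterol methyl oxidase, 607 CPM in Mut and 516 CPM in WT. Nsdhl and Hsd17b7, which with Msmo1 remove the methyl groups, had 138 CPM in Mut and 125 CPM in WT, and 63.8 CPM in Mut and 53.9 CPM in WT, in that class. Sc5d, the desaturase near the end of the route, had 147 CPM in Mut and 127 CPM in WT in astrocyte-like cells, and Dhcr7, the last reductase of the Kandutsch-Russell branch, 104 CPM in Mut and 86.0 CPM in WT. Nsdhl and Ebp are on chromosome X.

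The sterol sensing genes were highest in the astroglial classes. Srebf2, encoding the SREBP that mainly drives cholesterol genes, had 131 CPM in Mut and 114 CPM in WT in astrocyte-like cells and 26.0 CPM in Mut and 26.2 CPM in WT in endothelial cell-like cells. Srebf1, whose products drive mainly fatty acid genes, was high in fewer classes: it had 86.9 CPM in Mut and 84.1 CPM in WT in astrocyte-like cells, and 81.6 CPM in Mut and 87.8 CPM in WT in radial glia-like cells. In oligodendrocyte precursor-like cells, where Srebf2 was at 127 CPM in Mut and 103 CPM in WT, Srebf1 had 14.5 CPM in Mut and 11.4 CPM in WT. Scap varied least among the 4, by 3.61-fold between classes in Mut and 3.32-fold in WT. Insig1 followed the enzymes, with 181 CPM in Mut and 162 CPM in WT in astrocyte-like cells and 13.2 CPM in Mut and 12.3 CPM in WT in mural cell-like cells.

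The transport genes did not share a single order. Among the compared classes Apoe was highest in astrocyte-like cells, as most enzymes were. Abca1, Abcg1 and Stard4 were highest in endothelial cell-like or microglia-like cells. Apoe, at chr7:19696109-19699188, encodes the main apolipoprotein of brain and had 16238 CPM in Mut and 18053 CPM in WT in astrocyte-like cells. Radial glia-like cells had 10762 CPM in Mut and 11961 CPM in WT, and microglia-like cells 8020 CPM in Mut and 10722 CPM in WT. In inhibitory neuron-like cells Apoe was at 302 CPM in Mut and 288 CPM in WT, while free RNA held 5923 CPM in Mut and 4983 CPM in WT. Abca1, which loads sterol on apolipoproteins, was high in endothelial cell-like cells (368 CPM in Mut and 372 CPM in WT) and in microglia-like cells (365 CPM in Mut and 388 CPM in WT), with astrocyte-like cells at 248 CPM in Mut and 228 CPM in WT. Abcg1, a second exporter, had 142 CPM in Mut and 138 CPM in WT in endothelial cell-like cells and only 2.08 CPM in Mut and 2.63 CPM in WT in astrocyte-like cells. Stard4, a soluble sterol carrier, was highest in endothelial cell-like cells, at 83.2 CPM in Mut and 74.3 CPM in WT, and near as high in mixed astroglia-like cells, at 81.5 CPM in Mut and 64.9 CPM in WT. Border-associated macrophage-like cells, too few in WT to be compared, had 26284 CPM of Apoe in Mut and 25521 CPM in WT, with 365 CPM of summed enzymes in Mut and 318 CPM in WT.

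Between the libraries, the enzymes were modestly higher in Mut. Over all kept cells their sum was 3361 CPM in Mut and 2900 CPM in WT, a ratio of 1.16 (interval 1.15 to 1.17). Astrocyte-like cells had a ratio of 1.16 (1.15 to 1.16). In radial glia-like cells it was 1.15 (1.11 to 1.19), in a class where the libraries differed in markers of other cells. The 8 choroid plexus markers summed there to 13057 CPM in Mut and 47.9 CPM in WT, the 6 erythroid markers to 3754 CPM in Mut and 119 CPM in WT, and the 9 ependymal markers to 1305 CPM in Mut and 684 CPM in WT. Cells in which choroid plexus or erythroid markers held at least 1% of UMIs were 6 of 385 in Mut and none in WT, where a count of 0 allows a share of up to 0.595%. Without them the choroid plexus sum was 61.4 CPM in Mut and 47.9 CPM in WT, the erythroid sum 98.4 CPM in Mut and 119 CPM in WT, the ependymal sum 1287 CPM in Mut and 684 CPM in WT, and the enzyme ratio 1.19 (1.15 to 1.24). The part of the ependymal marker difference was not tested. The ratio was 1.10 (1.09 to 1.12) in mixed astroglia-like cells and 1.10 (1.08 to 1.12) in oligodendrocyte precursor-like cells. It was 1.24 (1.14 to 1.34) in microglia-like cells, 1.11 (1.05 to 1.18) in endothelial cell-like cells and 1.10 (1.07 to 1.14) in inhibitory neuron-like cells. Erythroid markers held 10715 CPM in Mut and 7371 CPM in WT in endothelial cell-like cells. Inhibitory neuron-like cells had 719 CPM in Mut and 125 CPM in WT. Oligodendrocyte precursor-like cells had 340 CPM in Mut and 89.5 CPM in WT, and committed ones 58.7 CPM in Mut and 63.3 CPM in WT. Without cells rich in these or choroid plexus markers, ratios were 1.10 in endothelial cell-like, 1.11 in inhibitory neuron-like and 1.10 in oligodendrocyte precursor-like cells. The intervals of committed oligodendrocyte precursor-like cells (1.03, 0.978 to 1.08) and mural cell-like cells (1.07, 0.966 to 1.19) included 1. The median ratio of all genes measured was 1.08 in microglia-like, 1.06 in mural cell-like and 1.05 in inhibitory neuron-like cells. It was 1.04 in astrocyte-like, 1.03 in mixed astroglia-like and 1.03 in oligodendrocyte precursor-like cells. Radial glia-like cells had 1.02, committed oligodendrocyte precursor-like cells 1.02 and endothelial cell-like cells 1.01. Across classes the median enzyme had a median log2 ratio of 0.17, beside 0.06 over the 11763 genes measured in at least 4 classes. The enzymes above 0 were 17 of 19, where 68.1% of all genes were.

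At a threshold of 1.2-fold, 4 of the 19 enzymes were called higher in Mut across classes, and 7.53% of all genes were. These were Acat2, with a median ratio of 1.27 over 9 classes, Tm7sf2 with 1.26 over 7 classes, Lss with 1.26 over 6 classes and Dhcr7 with 1.21 over 9 classes. No enzyme was called lower, where 2.07% of genes were; Ebp, at a median ratio of 0.886, was lowest, and Mvk stood at 0.979. The threshold is a log2 ratio of 0.26. Dhcr7 fell below it with TMM scaling, at 0.19, and under 7 further alternatives, and Acat2 in male cells, at -0.016. Pmvk, at 1.01, was the only member whose median changed sign with TMM scaling, a log2 ratio of -0.03. Fdps, Lss and Sc5d had a ratio above 1 in every class with at least 30 UMIs, as did 7.94% of genes. Within astrocyte-like cells all 19 enzymes had a ratio above 1. The share of all genes above 1 was not counted there, but the median ratio of the 13825 genes measured was 1.04. Of the 19 enzymes 5 were called higher, where 13.9% of genes were. They were Acat2 at 1.40 (1.35 to 1.46), Lss at 1.40 (1.31 to 1.49), Tm7sf2 at 1.29 (1.21 to 1.37), Dhcr7 at 1.21 (1.15 to 1.27) and Hmgcs1 at 1.21 (1.19 to 1.22). None was called lower there, where 6.28% of genes were. In oligodendrocyte precursor-like cells 3 of 19 were called higher and 0 lower, where 13.4% and 6.53% of genes were. In mixed astroglia-like cells 2 of 19 were called higher and 0 lower, where 16.1% and 7.85% of genes were. Radial glia-like cells had 8 of 19 called higher and 0 lower, beside 23.3% and 13.9% of genes. Without the 6 Mut cells rich in choroid plexus or erythroid markers, 10 were called higher and 0 lower, beside 24.7% and 12.7% of genes. Ependymal markers were higher in Mut in this class with and without those cells. Inhibitory neuron-like cells had 4 of 19 called higher and 0 lower, beside 19.8% and 8.92% of genes. In committed oligodendrocyte precursor-like cells 5 of 19 were called higher and 3 lower, beside 23.1% and 17.8% of genes.

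Where UMIs were fewer, not every enzyme could be read. In microglia-like cells 10 of the 17 with enough UMIs were called higher and 1 lower, where 30.7% and 10.6% of genes were. In endothelial cell-like cells 9 of 18 were called higher and 2 lower, where 15.4% and 13.2% of genes were. In mural cell-like cells 4 of 13 were called higher and 2 lower, where 28.5% and 13.1% of genes were. The microglial count rests on 1277 enzyme UMIs in Mut and 1148 in WT.

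Other measures moved in the same direction as the enzymes. Free RNA held 1.26 times (1.23 to 1.29) as much of the enzyme sum in Mut as in WT. The 10 astrocyte markers summed to 7319 CPM in Mut and 6593 CPM in WT in astrocyte-like cells, with none at 0. The 6 erythroid markers there summed to 831 CPM in Mut and 102 CPM in WT, and without the 8 Mut and 2 WT cells rich in them or in choroid plexus markers to 75.8 CPM in Mut and 64.8 CPM in WT, with an enzyme ratio of 1.16 (1.15 to 1.17). The astrocyte-like cells with a UMI of a division gene were 32.8% in Mut and 27.2% in WT, at median depths of 9562.5 UMIs in Mut and 8407 UMIs in WT, and the enzyme ratio was 1.16 both in those with such a UMI and in those without. With free RNA subtracted at 5% of the UMIs of a class, the ratio was 1.16 over all kept cells, 1.15 in astrocyte-like cells and 1.14 in radial glia-like cells. The neuronal, vascular and microglial classes held less of the enzyme sum than free RNA did. After subtraction their ratio was 1.09 in inhibitory neuron-like, 1.08 in endothelial cell-like, 1.03 in mural cell-like and 1.23 in microglia-like cells. Before subtraction these were 1.10, 1.11, 1.07 and 1.24 in that order. The part of the astrocyte marker difference in the enzyme ratio was not tested. Within the astrocyte-like clusters the ratio was lowest, 1.07 (1.05 to 1.10), in the cluster led by Gfap and Serpinf1, and highest, 1.24 (1.21 to 1.26), in the cluster led by Pla2g7, Cldn10 and Slc7a10.

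Sensing genes differed by similar amounts and transport genes did so unevenly. Srebf2 had a median ratio of 1.18 across classes, Insig1 1.12, Srebf1 1.12 and Scap 1.07, and none of the 4 was called. Their medians over classes were not all above 1 within each sex: in male cells the log2 median was -0.050 for Insig1 and -0.081 for Scap, and in female cells -0.025 for Srebf1. Stard4, at 1.21, was the only one of 4 transport genes called higher, where 7.53% of all genes were, and fell below the threshold with TMM scaling, at a log2 ratio of 0.23. With both sexes pooled, Apoe was lower in Mut in the 4 compared classes where its level was highest. Its ratio was 0.899 (0.896 to 0.903) in astrocyte-like cells and 0.900 (0.884 to 0.916) in radial glia-like cells. It was 0.958 (0.949 to 0.967) in mixed astroglia-like cells and 0.748 (0.734 to 0.762) in microglia-like cells. In border-associated macrophage-like cells, with the highest level of all, the ratio was 1.03 (1.01 to 1.05). Microglia-like cells with a UMI of a division gene had 6162 CPM of Apoe in Mut (183 cells) and 9851 CPM in WT (178 cells). Those without such a UMI had 11692 CPM in Mut (121 cells) and 11642 CPM in WT (216 cells), a log2 ratio of 0.0061. The share of microglia-like cells with a division UMI was 60.2% in Mut and 45.2% in WT, at median depths of 6872 UMIs in Mut and 6021 UMIs in WT. Abca1 had a ratio of 1.09 (1.05 to 1.12) in astrocyte-like cells and 0.855 (0.751 to 0.972) in radial glia-like cells.

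The ratio of the enzyme sum was larger in female than in male cells, a difference that was not tested. Over all kept cells, the enzyme sum was 3611 CPM in Mut and 2914 CPM in WT among female cells, a ratio of 1.24 (1.23 to 1.25). Among male cells it was 3092 CPM in Mut and 2949 CPM in WT, a ratio of 1.05 (1.04 to 1.06). In female cells all 19 enzymes had a ratio above 1, where 61.7% of genes did, and 11 were at least 1.2-fold higher, where 14.4% were. In male cells 11 of 19 were above 1, where 60.3% of genes were, and Lss and Tm7sf2 were at least 1.2-fold higher, where 17.3% were. By the median over classes, 8 of 18 enzymes measured in female cells were called higher and 0 lower, where 10.3% and 2.69% of genes were. In male cells 1 of 18 was called higher and 1 lower, where 9.49% and 3.09% of genes were. The median log2 ratio of these enzymes was 0.24 in female cells, beside 0.059 over all genes. It was 0.0092 in male cells, beside 0.047 over all genes. Within the Mut library the female sum was 1.17 times the male one, and within the WT library 0.988 times. The ratio of female to male level was higher in Mut than in WT for all 19 enzymes, as for 51.2% of the 11519 genes with at least 100 UMIs in each of the 4 groups, and at least 1.2-fold higher for 8 of them, where 6.46% of genes were. Female and male cells come from different animals whose number is not known, so sex and animal cannot be told apart.

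**Figure D4:**
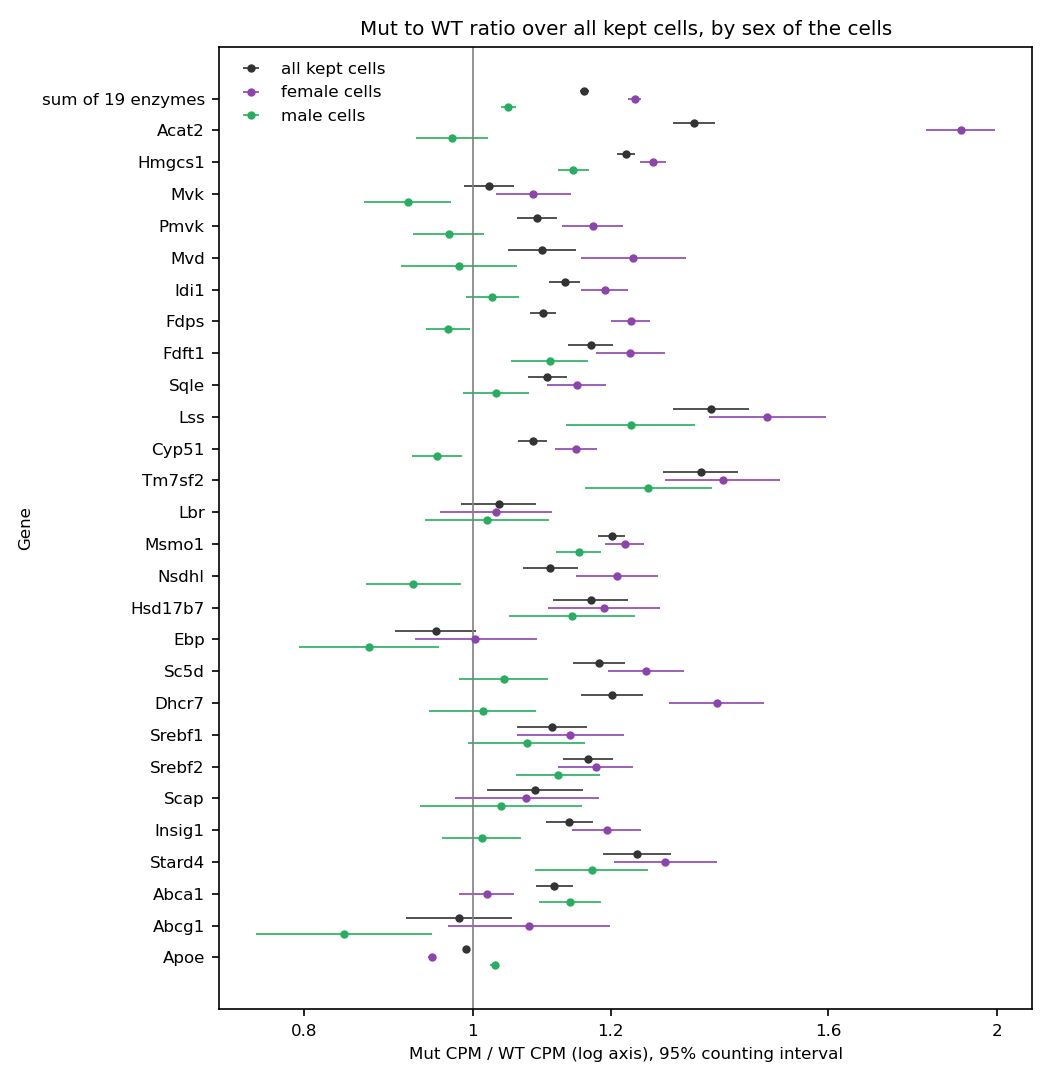
Ratio of Mut CPM to WT CPM (horizontal axis, log scale) over all kept cells, female cells and male cells, for the enzyme sum and each of 27 sterol genes (vertical axis), with exact 95% counting intervals. The Acat2 ratio is 1.91 in female cells and 0.974 in male cells.

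Acat2 differed most between the sexes. Female cells had 179 CPM in Mut and 93.7 CPM in WT, a ratio of 1.91 (1.82 to 1.99). Male cells had 130 CPM in Mut and 134 CPM in WT, a ratio of 0.974 (0.928 to 1.02). The WT female value was the low one of the 4. Astrocyte-like cells had a ratio of 2.08 (1.95 to 2.21) in female and 0.953 (0.891 to 1.02) in male cells. Oligodendrocyte precursor-like cells had 1.66 (1.49 to 1.84) in female cells, and an interval of 0.891 to 1.12 in male cells. Acat3, a close copy of Acat2, had 4.43 CPM in Mut and 4.01 CPM in WT, and its transcripts held 50.5% of the Acat2 transcript's words of 31 bases but only 2.34% of those in the last 500 bases. By contrast Lss kept its direction in both sexes, with 1.48 (1.37 to 1.59) in female and 1.23 (1.13 to 1.34) in male cells, and so did Tm7sf2, with 1.39 in female and 1.26 (1.16 to 1.37) in male cells. Hmgcs1 had 1.27 (1.25 to 1.29) in female and 1.14 (1.12 to 1.17) in male cells. Apoe in microglia-like cells was lower in Mut in both sexes, at 0.710 (0.691 to 0.730) in female and 0.821 (0.796 to 0.846) in male cells. The same held in astrocyte-like cells (0.882 in female, 0.930 in male) and mixed astroglia-like cells (0.944 in female, 0.960 in male). In radial glia-like cells the Apoe ratio was 0.870 (0.842 to 0.898) in male cells. Female radial glia-like cells had 11208 CPM in Mut and 11210 CPM in WT, with a ratio interval of 0.972 to 1.03. Over all kept cells the Apoe ratio was 0.947 (0.943 to 0.952) in female and 1.03 (1.02 to 1.04) in male cells.

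By class, the enzyme ratio was higher in female than in male cells in 7 of the 9 classes, all but the inhibitory neuron-like and committed oligodendrocyte precursor-like classes. In radial glia-like cells it was 1.23 (1.17 to 1.31) in female and 0.956 (0.891 to 1.02) in male cells. In inhibitory neuron-like cells it was 1.07 (1.01 to 1.13) in female and 1.15 (1.08 to 1.21) in male cells. In mural cell-like cells it was 1.16 (0.999 to 1.36) in female and 0.759 (0.610 to 0.943) in male cells, over 453 female UMIs in Mut and 275 in WT, and 140 male UMIs in Mut and 221 in WT.

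**Figure D5:**
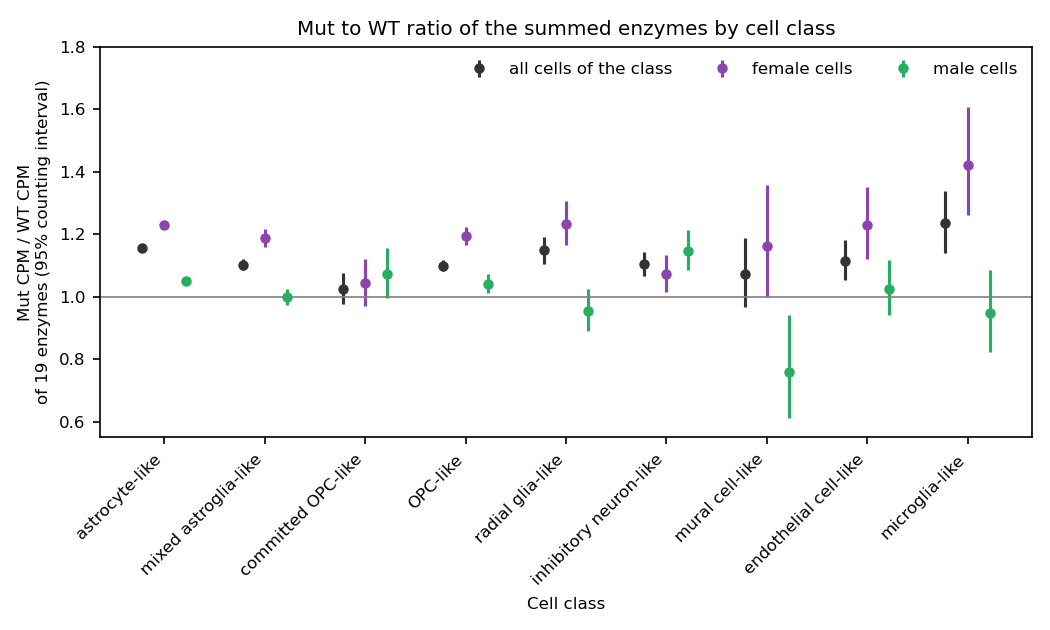
Ratio of Mut CPM to WT CPM of the summed enzymes (vertical axis) in 9 cell classes (horizontal axis) for all, female and male cells, with exact 95% counting intervals. In astrocyte-like cells the ratio is 1.23 in female and 1.05 in male cells.

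Neighbouring pathways were read from lists chosen by function, with earlier results of these data known. The shares given for them are likewise a description and not a test. Of the 12 fatty acid synthesis genes all had a median ratio above 1, where 68.1% of genes did, and 4 were called higher, where 7.53% were. The highest were the desaturases Scd1 (1.24) and Scd2 (1.23) and the elongase Elovl5 (1.23), and the lowest Acaca (1.03), Acly (1.07) and Me1 (1.07), which supply malonyl-CoA, acetyl-CoA and NADPH. None of the 10 genes of the isoprenoid branch was called, and their median ratio of 1.04 equalled that of all genes to 2 decimals. The highest there were Pggt1b (1.16), Ggps1 (1.07) and Pdss2 (1.06), and the lowest Coq2 (0.987), Fntb (1.01) and Pdss1 (1.01), genes of protein prenylation and ubiquinone synthesis. Of 25 further genes of sterol uptake, export and turnover, 22 were measured in at least 4 classes. Of these 17 were above 1, where 68.1% of all genes were, and 2 were called higher, where 7.53% were. The called genes were Nr1h3 (1.24), a liver X receptor, and Abca2 (1.23 over 7 classes), a lipid transporter. Nr1h3 was measured in 4 classes, with ratios from 0.698 to 1.65. Abcg4 (1.19 over 4 classes) followed. The lowest were the apolipoprotein gene Apod (0.885), the other liver X receptor Nr1h2 (0.942) and the lysosomal lipase Lipa (0.978).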

How the data were processed

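Cortical cells were profiled in 2 droplet libraries, 1 Mut and 1 WT. Raw UMI counts per gene and barcode were deposited by the authors; per the file headers they were written by Cell Ranger 4, and per the submitters' processing notes the build was GRCm38 and STAR was used. The sources used here name neither the annotation release nor the counting strand. The Mut library holds 97891513 UMIs over 1974760 barcodes and the WT library 93664707 over 1957831. No cells had been called in these files.

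The 10102 Mut and 11024 WT barcodes with 1000 or more UMIs, 500 or more genes and no more than 20% mitochondrial UMIs were used. Scrublet, run from scanpy 1.11.5 on each library, gave doublet scores, and the top 0.8% per 1000 barcodes were removed, 816 in Mut (8.08%) and 972 in WT (8.82%). The tool's own threshold would have removed 361 in Mut and 347 in WT. Both libraries were clustered jointly on 2000 variable genes, leaving out all genes of the lists used here, with 30 components, 15 neighbours and Leiden resolution 1, which gave 29 clusters. Types with at least 3 markers in 10% of cells, and with as many markers among the cluster's 10 leading genes as any other type, were ranked by score (mean level relative to the cluster where each marker is highest). The first named the cluster at a score of at least 0.4 and a lead of at least 0.06. Clusters below this whose 2 highest scores were astrocyte and radial glia, the first at least 0.3, were called mixed astroglia. The remaining 4 clusters stayed unnamed. This scoring rule was settled after scores had been seen.

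UMIs were summed per class and library, divided by all UMIs of the class and given per 1000000 (CPM). Ratios needed 30 UMIs over both libraries, medians over classes at least 4 classes, and a call 1.2-fold. Exact 95% Poisson and conditional binomial intervals cover counting error only. The ratio step was tested on simulated data. Female cells have Xist and no Y-linked UMI, male cells the reverse. All 27 members are named; of the other lists, the 3 highest and 3 lowest median ratios. The members and lists were chosen with earlier results of these data known, and the promoter motifs after looking at the windows.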

Additional observations from a re-analysis of the deposited data

Results flagged for a closer look

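For 4 enzymes the ratio of Mut to WT over all kept cells was past 1.2-fold in female cells and below 1 in male cells. Acat2 had 1.91 in female and 0.974 in male cells, and Fdps had 1.23 in female and 0.968 in male cells. Mvd had 1.24 in female and 0.983 in male cells, and Nsdhl, an X-linked gene, had 1.21 in female and 0.925 in male cells. The difference between the sexes was not tested, since cells cannot be assigned to animals.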

How the results depend on the processing

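No paired analysis was possible because each genotype has a single library. The alternatives changed 1 choice at a time, 23 in all; leaving out the barcodes found in both libraries, and the cells rich in choroid plexus or erythroid markers, was added after seeing the data. Of 4034 recomputed values, 3675 kept their size within the counting interval or 1.5 times a count, 342 moved and 17 turned round. A change of direction counted as turned round only from a value at least 1.2-fold from 1, or in the headline results. Those were the enzyme median and count, and the summed ratios over all kept, astrocyte-like and oligodendrocyte precursor-like cells. Other changes of direction were counted as kept or moved. Among them were the male enzyme ratios of mural cell-like (0.759), radial glia-like (0.956) and mixed astroglia-like cells (0.999). Single members in single classes were recomputed only where each library had at least 100 UMIs (148 values), a limit chosen after the output of the alternatives had been seen, which shortened the count that turned round. A ratio of 1 was not the level of the typical gene. The all-gene median ratio was 1.04 in astrocyte-like and 1.03 in oligodendrocyte precursor-like cells. In male cells the all-gene median log2 ratio over classes was 0.047. The summed enzyme ratio stayed above 1 over all kept cells (1.05 to 1.24), in astrocyte-like cells (1.05 to 1.23) and in oligodendrocyte precursor-like cells (1.04 to 1.19) under all alternatives. In that order of the 3 cell sets, it was 1.12, 1.12 and 1.06 with TMM scaling, 1.24, 1.23 and 1.19 in female cells, 1.05, 1.05 and 1.04 in male cells, and 1.14, 1.14 and 1.12 with equal weight for the sexes. Over all kept cells and in astrocyte-like cells it was 1.15 and 1.15 with mitochondrial UMIs outside the totals and 1.17 and 1.17 with no doublets removed. In astrocyte-like cells it was 1.15 after thinning to 1000 UMIs, 1.17 after thinning to 3000 and 1.17 at Leiden resolution 2. Over all kept cells it was 1.15 without Acat2 and 1.19 in cells without division UMIs. In mixed astroglia-like cells it was 2.63 (1.53 to 4.81) in cells without division UMIs, which were very few. In that class 99.7% of the Mut cells and 99.7% of the WT cells had a division UMI. The 4 enzymes called higher became 8 in female cells, 1 in male cells, 2 with equal weight for the sexes and 0 at 1.5-fold, and 3 with TMM scaling and with free RNA subtracted. Of 22 alternatives the call of Dhcr7 was lost under 8, that of Stard4 under 7, that of Acat2 under 1 and that of Lss under 0, and that of Tm7sf2 under 1 of 17. In male cells the microglia-like enzyme ratio turned to 0.946 and the median log2 ratio of Acat2 to -0.016. The other medians that changed sign in male cells, all from values below the threshold, were Pmvk (-0.075), Idi1 (-0.0016), Cyp51 (-0.062), Nsdhl (-0.20), Scap (-0.081) and Insig1 (-0.050); in female cells they were Mvk (0.065), Srebf1 (-0.025), Abca1 (-0.0029) and Abcg1 (0.041), and thinned to 3000 UMIs Lbr (-0.028), Hsd17b7 (-0.0094), Srebf1 (-0.0093), Abcg1 (0.19) and Apoe (0.068). Single log2 ratios that turned in male cells were Acat2 in astrocyte-like (-0.070), mixed astroglia-like (-0.093) and radial glia-like cells (-0.032), Idi1 in endothelial cell-like cells (-0.15) and Tm7sf2 in oligodendrocyte precursor-like cells (-0.058). Apoe in committed oligodendrocyte precursor-like cells turned to 0.54 thinned to 1000 UMIs, 0.44 thinned to 3000, 0.48 in female cells, 0.55 in male cells and 0.53 with equal weight for the sexes, and in microglia-like cells to 0.0061 in cells without division UMIs. Msmo1 in committed oligodendrocyte precursor-like cells (0.16) and Hmgcs1 in inhibitory neuron-like cells (-0.020) turned when thinned to 1000 UMIs, Srebf1 in oligodendrocyte precursor-like cells (-0.019) when thinned to 3000, and Fdft1 in radial glia-like cells (-0.12) with cells named singly. The cause was not tested. At this depth 17 of 19 enzymes had enough UMIs for a ratio in microglia-like cells and 13 of 19 in mural cell-like cells.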
